A study of Mus musculus with 3 samples.

Results

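Cytosolic ribosomal protein genes were taken as every row of the count tables whose symbol is Rpl or Rps followed by a number and at most one of the letters a, l, x or y, together with Rplp0, Rplp1, Rplp2 and Rpsa. This rule, which uses names and no measured value, found 81 of the 32531 rows that name a gene, 49 of the large (60S) and 32 of the small (40S) ribosomal subunit. The RNA was taken from the cerebral cortex of untreated adult C57BL/6J mice that carry the Kcnip2-TRAP transgene NIDA115. In this line a fusion of EGFP and the ribosomal protein L10a is expressed from regulatory sequences of Kcnip2, a potassium channel subunit gene, so that an antibody to EGFP pulls down ribosomes with their RNA (TRAP). The 3 libraries, replicates 1 to 3, are all immunopurified samples and form 1 group. Since no label ties a library to an animal of its own, a p-value here reflects library-to-library spread, and that spread may be technical. Input and wild-type libraries were not analysed here, so levels are those within the immunoprecipitate, and a tagged cell type that is more numerous cannot be told apart from one that holds more RNA per cell.

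Each ribosome holds one copy of most of its proteins around a core of ribosomal RNA: the small subunit reads the messenger RNA, and the large subunit joins the amino acids and holds the tunnel through which the new chain leaves. Mammals mostly have 1 active gene for each protein, and many processed copies of these messenger RNAs lie scattered in the genome. The messenger RNAs of ribosomal proteins are short and typically begin with a run of pyrimidines, the 5′ terminal oligopyrimidine (TOP) sequence, through which mTOR and LARP1 set their translation.

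The start site sequences are shown because this run is the feature the family is best known for, and because the members printed span the levels measured. RefSeq promoter windows (GRCm38.p6) were found for 60 of the 81 members. Each line gives 25 bases before and 15 bases from the annotated start, 5′ to 3′, and capitals mark an unbroken run of at least 8 C or T.
Rpl4, chr9:64173362-64173401, plus strand: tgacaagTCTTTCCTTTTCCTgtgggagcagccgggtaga
Rpl31, chr1:39367826-39367865, plus strand: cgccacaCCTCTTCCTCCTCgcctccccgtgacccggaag
Rpl7a, chr2:26910782-26910821, plus strand: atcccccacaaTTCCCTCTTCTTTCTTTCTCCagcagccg
Rps6, chr4:86857353-86857392, minus strand: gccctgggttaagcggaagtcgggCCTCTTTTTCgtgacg
Rps10, chr17:27635230-27635269, minus strand: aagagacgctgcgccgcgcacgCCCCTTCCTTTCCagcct
Rpl34, chr3:130730384-130730423, minus strand: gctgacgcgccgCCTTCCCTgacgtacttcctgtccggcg
Rpl10a, chr17:28328446-28328485, plus strand: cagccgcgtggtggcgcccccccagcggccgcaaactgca
Rpl4 and Rpl31 were the highest of the 81 per kilobase, and Rps10 and Rpl34 were among the lower ones, and all of these hold such a run. The window of Rpl10a, the gene of the tagged protein, holds none of that length. Such a run lay within 25 bases of the annotated start on the sense strand in 29 of the 60 members (48.3%), against 5250 of 27025 genes with a window (19.4%). The motif CCGGAAG, a binding sequence of ETS factors, was found on either strand of the 300-base window in 24 members (40.0%, against 9.12% of all genes), the motif AAGATGG in 8 (13.3% against 6.48%) and TATAAA in 5 (8.33% against 14.2%). These are matches of letters only, annotated starts can lie some bases from the true ones, and a motif can overlap a pyrimidine run.

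Gene counts summed to 11602248, 13635132 and 14174384 for replicates 1, 2 and 3. The fixed neuronal markers were abundant, from 250 CPM (counts per 1e6 of the scaled library size) for Slc17a7 to 33510 CPM for Snap25. The summed level of 8 astrocyte markers was 1534 to 2465 CPM and lowest in replicate 1. The sum for 7 oligodendrocyte markers was 485 to 664 CPM and that for 7 microglial markers 40.2 to 61.4 CPM. For 7 endothelial and mural markers the sum was 15.9 to 22.6 CPM, with Cldn5 at 0 counts in replicates 2 and 3. Cldn5, Pecam1 and Kdr were highest in replicate 1, Flt1, Tek and Rgs5 in replicate 2, and Pdgfrb in replicate 3. Ttr, the choroid plexus transthyretin gene, had 0, 569 and 0 counts. The other choroid plexus markers did not follow it: Kl had 46, 54 and 79 counts and Clic6 had 6, 11 and 18. Nuclear non-coding RNAs were highest in replicate 1, where Malat1 was at 8780 CPM against 2580 and 1800 in replicates 2 and 3. The part of these differences in the results below was not tested, except where values are given.

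Ribosomal protein genes took a small part of the gene counts, which leave out reads that align to several places. The members held 46794, 49021 and 52755 counts, or 0.403%, 0.360% and 0.372% of gene counts in replicates 1, 2 and 3. The exact binomial 95% intervals, which cover counting error only, were 0.400% to 0.407%, 0.356% to 0.363% and 0.369% to 0.375%. Replicate 1 thus lay above the other libraries by more than counting error. The mean share was 0.378% ± 0.0225 (SD, n = 3).

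A level of at least 1 CPM in each library was reached by 77 of the 81 genes (95.1%), against 37.3% of all rows. The median member was at 35.1 ± 3.20 CPM (SD, n = 3), and the median of all 12509 genes past the count filter was at 20 ± 0.296 CPM. Divided by transcript length (the median length of the gene's protein-coding transcripts), the median member was at 46.6, 39.4 and 40.5 CPM per kilobase, a mean of 42.2 ± 3.86, against 7.72 ± 0.0452 for all filtered genes with a length. By mean counts 5 members reached 100 CPM, 23 were at 50 to under 100 CPM, 32 at 20 to under 50, 13 at 10 to under 20 and 8 under 10 CPM. The plot of levels by library shows that for most members the libraries lay close together, while the members spread widely.

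**Figure D1:**
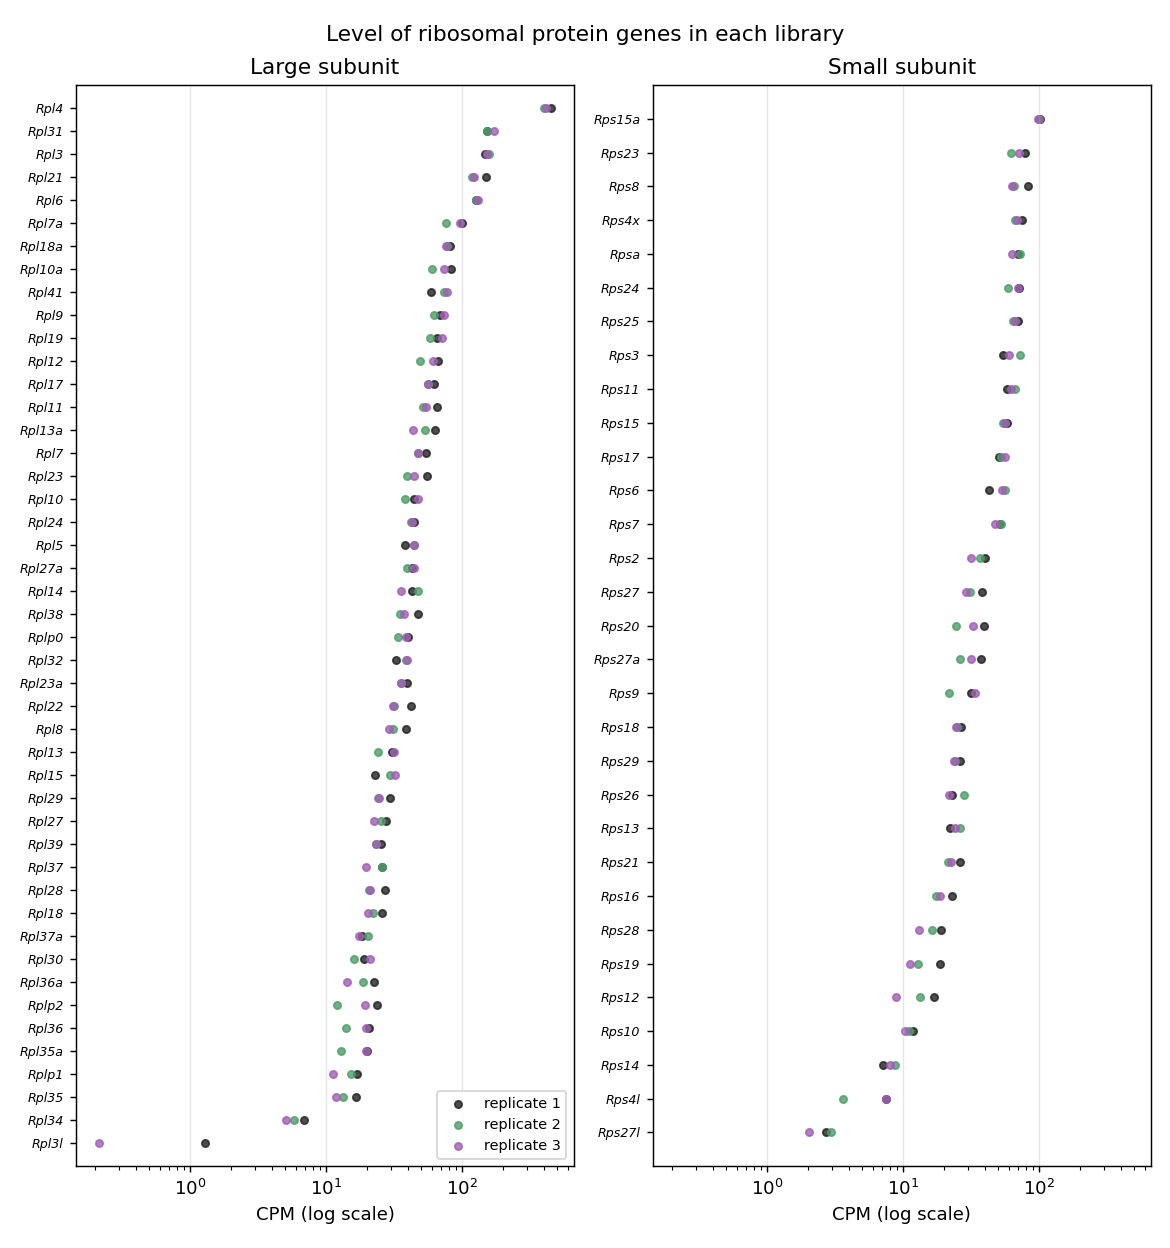
Level of each ribosomal protein gene in CPM (log axis), with 1 point for each of the 3 libraries, for the reported large and small subunit genes that had any count (a value of 0 is not drawn). Rpl4 stands at 396 to 449 CPM, apart from the others, and Rpl3l, Rps27l, Rpl34 and Rps4l lie at the low end.

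Levels of different genes are compared here per kilobase of transcript, on the CPM per kilobase scale. Rpl4 (chromosome 9, 64173375 to 64178666, plus strand, mm10), which encodes a large subunit protein that reaches into the exit tunnel, was highest at 292, 257 and 268 in replicates 1, 2 and 3. Rpl31 (chromosome 1, 39367842 to 39371911, plus strand), which lies at the rim of the tunnel exit, followed at 240, 240 and 272. The ranges of both genes overlap, so their order is not fixed by these libraries. Rpl41, the gene of the smallest ribosomal protein, was at 112, 140 and 147, and Rps24, of the small subunit, at 136, 113 and 133. Rpl21 was at 139, 111 and 113. These 3 genes overlapped with each other and each lay below Rpl31 in every library. Rpl4 alone supplied 11.1% of the members' counts, Rpl31 4.19% and Rpl3, which helps to form the peptidyl transferase centre, 4.02%.

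The order of the members, the highest included, depended on which length divided the counts. Per kilobase of the longest annotated coding sequence, Rpl41 came first at 507 ± 71.3 CPM, followed by Rpl31 at 409 ± 30.2, Rpl4 at 333 ± 22, Rpl21 at 269 ± 35.0 and Rps15a at 255 ± 4.83 (SD, n = 3). Rps15a moved most: its counts, 101, 100 and 97.4 CPM, gave 19.4 ± 0.367 CPM per kilobase of transcript, because its annotated protein-coding transcripts have a median length of 5130 bases for a coding sequence of 390. Rps20, with a median of 3706 bases and a coding sequence of 357, went from 8.66 to 89.9 in the same way. Over the 78 members with a count, log2 CPM and log2 transcript length had a Pearson correlation of 0.276 and a Spearman correlation of 0.387, given as a description of genes that share the same 3 libraries. The plot of counts against length shows this spread.

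**Figure D2:**
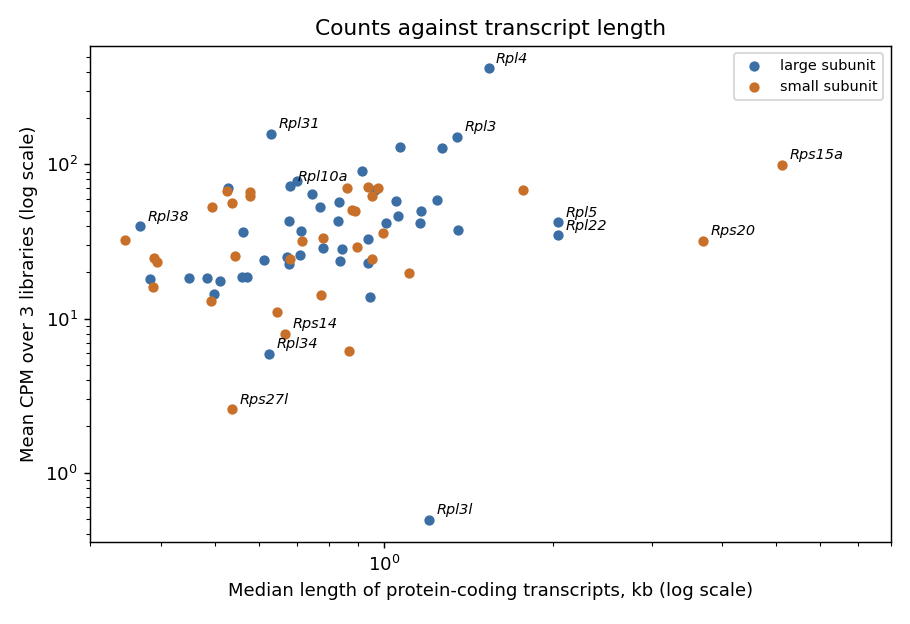
Mean CPM over 3 libraries against the median length of protein-coding transcripts, both on log axes, 1 point for each of the 78 members with a count, with some genes named. Rps15a and Rps20 lie far to the right through their long annotated transcripts, and Rpl4 lies at the top at 419 CPM.

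The 90th percentile of the levels per kilobase was 9.03 times the 10th over all 81 members and 6.25 times over the 77 past the count filter. The same ratio was 10.5 for all 77 mitochondrial ribosomal protein genes, of which 75 passed the filter, and 44.6 for all filtered genes. The median mitochondrial ribosomal protein gene was at 13 ± 0.625 CPM per kilobase (SD, n = 3).

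The medians of the subunits lay close together. The large subunit median was 45.6, 37.4 and 40.5 CPM per kilobase and the small subunit median 48.8, 43.8 and 41.1 in replicates 1, 2 and 3. The large minus small difference on the log2 scale was -0.11 ± 0.11 (SD, n = 3), and it was 0.26 per kilobase of union exon and 0.16 for counts not divided by length. The sign of this difference thus depended on the divisor.

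Rpl10a (chromosome 17, 28328471 to 28331033, plus strand, mm10) encodes the protein of the L1 stalk that carries the EGFP tag in this line. It was at 82.8, 59.4 and 73.8 CPM, highest in replicate 1 and lowest in replicate 2. Per kilobase it was at 121, 87.2 and 108, a mean of 106 ± 17.3 (SD, n = 3) and rank 12 of 81. It was lower than Rpl4 in 3 of 3 libraries (log2 ratio per kilobase -1.38 ± 0.16) and higher than Rpl3 in 1 of 3 (log2 ratio -0.10 ± 0.29). Per kilobase of union exon these ratios were -2.83 and -0.70, and without division by length -2.55 and -1.09. Transgene and endogenous messenger share the coding sequence of Rpl10a, so reads of these sources cannot be told apart in this row.

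The ribosomal stalk, made of Rplp0, pairs of Rplp1 and Rplp2, and Rpl12 at its base, recruits elongation factors. Rplp0 was at 29.6, 24.9 and 28.2 CPM per kilobase, and Rplp1 at 33.8, 30.5 and 22.6. Rplp2 was at 52.4, 26.5 and 42.9, and Rpl12 at 53.6, 39.4 and 48.8. Rplp0, Rplp1 and Rplp2 overlapped with each other. The log2 ratio of Rplp0 over Rplp1 was -0.06 ± 0.33 and that of Rplp1 over Rplp2 -0.45 ± 0.58 (SD, n = 3), each with 1 of 3 libraries positive. Per kilobase of union exon the second ratio was 1.76, so the order of Rplp1 and Rplp2 depended on the divisor. The first ratio was -0.35 per kilobase of union exon, -0.10 per kilobase of coding sequence and 1.38 without division by length. Its sign thus depended on the divisor as well.

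Rpl5 and Rpl11, which enter the ribosome together with 5S ribosomal RNA and can bind Mdm2 when free, differed in level. Rpl5 was at 18.6, 21.6 and 21.8 CPM per kilobase and Rpl11 at 78.0, 61.5 and 65.0. Rpl5 was the lower in 3 of 3 libraries, by 3.29-fold (log2 ratio -1.72 ± 0.30). The transcript length assigned to Rpl5, 2045 bases for a coding sequence of 891, enters this value. Per kilobase of coding sequence the log2 ratio was -1.16, per kilobase of union exon -0.96 and without division by length -0.42, so the size of the difference depended on the divisor.

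Genes of exit tunnel proteins ranged widely. Besides Rpl4 and Rpl31, Rpl19 was at 86.9 ± 8.52 CPM per kilobase, Rpl23a, a docking site of the signal recognition particle, at 65.6 ± 3.74, Rpl17 at 55.0 ± 3.36 and Rpl39 at 39.0 ± 1.83. Rpl22 was at 16.9 ± 3.07 and Rpl35 at 14.6 ± 2.61 (SD, n = 3 for each). Per kilobase of coding sequence Rpl39 was at 156, Rpl22 at 90.3 and Rpl35 at 37.5, so the order depended on the divisor. Of the exon bases of Rpl35 and Rpl23a, 66.2% and 62.3% overlap exons of other annotated genes. The effect of this overlap on their counts was not tested. Rpl26 was listed at 0 in all 3 libraries.

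Rpl26 (chromosome 11, 68901583 to 68906989, plus strand, mm10) belongs to every cytosolic ribosome, so a value of 0 here is a statement about the table and not about the cells. A total of 71.3% of the 50-base windows of its transcript also occur in transcripts of genes at other places, which leaves 137 windows of its own, and no exon overlap with another annotated gene was found. Why Rpl26 has no count was not tested.

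In the small subunit, Rps3 and Rps2, which line the entry of the messenger RNA channel, were at 56.9, 75.8 and 63.3 and at 40.1, 36.7 and 31.5 CPM per kilobase. Rps3 was higher in 3 of 3 libraries (log2 ratio 0.85 ± 0.30), and this order turned per kilobase of union exon (log2 -0.51). Rps6, the target of S6 kinases downstream of mTOR, was at 48.8, 64.2 and 61.2 CPM per kilobase, lowest in replicate 1, and below Rpl10a in 3 of 3 libraries (log2 ratio -0.86 ± 0.44), but not per kilobase of union exon (log2 0.12). Rps23, part of the decoding centre, was at 75.9 ± 9.02 and Rps25 at 116 ± 4.64. Rpsa, which is also known as the laminin receptor, was at 38.7 ± 2.87 (SD, n = 3 for each).

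Small subunit genes also filled part of the low end. Rps14, whose human counterpart is tied to the 5q deletion anaemia, was at 7.16, 8.79 and 8.08 CPM (12 ± 1.22 per kilobase). Rps10 was at 11.8, 11 and 10.3 CPM (17.2 ± 1.22 per kilobase), and Rps12 at 16.8, 13.3 and 8.93 CPM (26.4 ± 8.01 per kilobase). In the large subunit Rpl34 was at 6.90, 5.83 and 5.03 CPM (9.49 ± 1.51 per kilobase). Each of these genes had at least 71 counts in every library. Genes mutated in Diamond-Blackfan anaemia, an inherited failure of red cell production, were not set apart by level per kilobase of transcript. The 16 fixed had a median of 41.7 ± 3.35 CPM per kilobase, from 0 for Rpl26 to 251 for Rpl31, against 42.2 for all members. Without division by length their median was lower, at 26.9, 28.8 and 26.2 CPM in replicates 1, 2 and 3. The median of all members was then 38.7, 33.8 and 32.7 CPM.

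The 4 X-linked genes were at 72.0 ± 4.78 CPM per kilobase for Rps4x, 52.3 ± 5.73 for Rpl10, 39.0 ± 1.83 for Rpl39 and 38.2 ± 8.56 for Rpl36a, with a median of 46.7 ± 3.93 against 42.2 for all members. Of the proteins made as fusions to ubiquitin or a ubiquitin-like protein, Rps27a was at 44.4 ± 7.56 CPM per kilobase. Fau, which encodes a ribosomal protein under a name outside the rule, was at 58.0 ± 12.9. Rps3a1, also outside the rule by its last digit, was at 68.8 ± 11.6, and Gnb2l1 (Rack1), a scaffold on the small subunit, at 35.7 ± 0.917 (SD, n = 3 for each). These values lie within the range of the named members.

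As listed, related copies of these genes were below their common partner, with 1 exception. Rpl10l and Rpl39l, which serve the male germ line, had no count in any library. A count of 0 allows a level of up to 0.256, 0.222 and 0.213 CPM in replicates 1, 2 and 3, for counting error only. If the 0 counts are taken as true, Rpl10 was at least 213-fold above Rpl10l and Rpl39 at least 109-fold above Rpl39l per kilobase. These folds use 3 counts per library as the limit, and the lowest library is given. As for Rpl26, the reason for the 0 counts of Rpl10l and Rpl39l was not tested. Rpl3l, the heart and skeletal muscle form of Rpl3, had 15, 0 and 3 counts, against 1718, 2125 and 2140 for Rpl3. Rpl36al, which is widely used in the body, was listed at 0 in all 3 libraries as well, and as for Rpl26 the reason was not tested, so no fold is read from it.

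Rps27l, a p53-regulated form of Rps27, was at 2.73, 2.95 and 2.05 CPM. Rps27 exceeded it 18.7-fold per kilobase (log2 ratio 4.22 ± 0.23, 3 of 3 libraries). Rps4x exceeded Rps4l, which the annotation used here classes as a transcribed processed pseudogene, 10.3-fold (log2 ratio 3.37 ± 0.52, 3 of 3), and Rpl7 exceeded Rpl7l1 6.25-fold (log2 ratio 2.64 ± 0.15, 3 of 3). These folds depended on the divisor: per kilobase of union exon the log2 ratio was 3.23 for Rps27 and 2.75 for Rps4x, and per kilobase of coding sequence 1.71 for Rpl7. The exception was Rpl22l1, the paralog that can replace Rpl22: it was at 15.9, 8.64 and 21.9 CPM, lowest in replicate 2, and Rpl22 at 41.9, 31.2 and 31.0. Per kilobase of transcript Rpl22 was the lower in 3 of 3 libraries (log2 ratio -0.69 ± 0.68), with a difference of only -0.09 in replicate 2, and the order turned without division by length (log2 1.24) and per kilobase of coding sequence (log2 1.17) or union exon (log2 0.69). The libraries thus fix no order for Rpl22 and Rpl22l1.

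**Figure D3:**
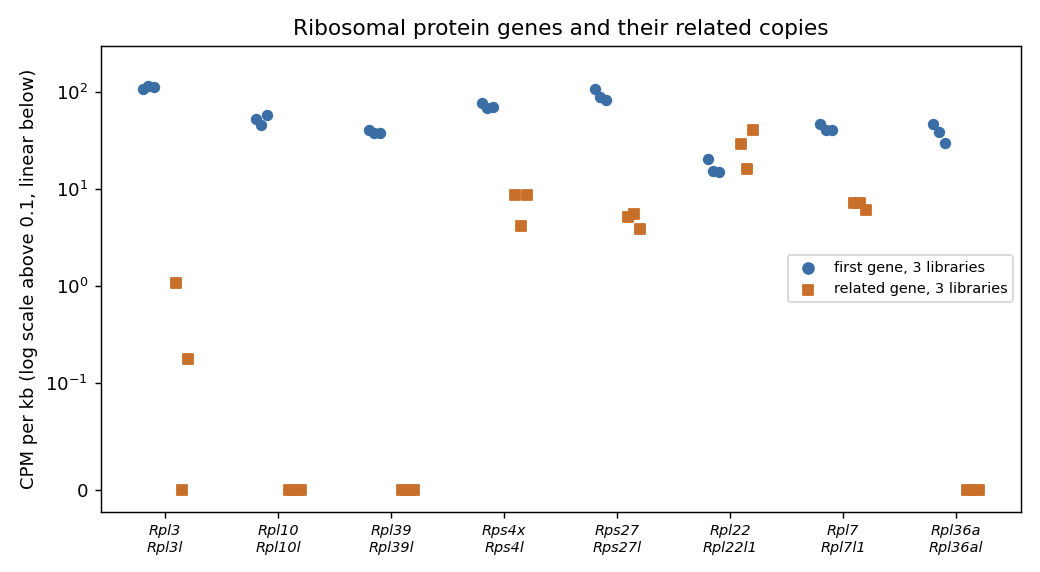
CPM per kilobase of transcript in each of 3 libraries for 8 genes (circles) and a related copy of each (squares), on an axis that is logarithmic above 0.1 and linear below. Copies of Rpl10 and Rpl39 lie at 0, as does the listed value of Rpl36al, and the reason for these 0 values was not tested. Only Rpl22l1 lies above its partner in all 3 libraries.

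Of 15 pairs fixed, 11 had at least 10 counts for both genes in every library. In 4 of these the first gene was higher in 3 of 3 libraries, in 4 it was lower in 3 of 3, and 3 were mixed. For the 8 pairs of 1 sign the exact two-sided sign-flip test gave p = 0.25, the smallest that 3 libraries allow (0.344 after Benjamini-Hochberg adjustment over the 11), so no pair could pass 0.05 in this design.

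Reads that align to several places are tallied apart from the genes in these tables, which matters for a family with many processed copies. The annotation names 298 copies of 60 members. Among the measured rows 6 carry the name of such a copy, with 46, 96 and 72 counts in all. Of these rows, 1 is named as a copy of Rplp2, for which the annotation used here names none. By exact 50-base windows, members shared from 0% (the copies Rpl39l and Rpl3l among them) to 98.6% (Rps27) of their transcript with genes at other places. Split into 3 equal steps of the shared percentage, the 20 members of the lowest step had a median of 33.8 CPM per kilobase, the 33 of the middle step 38.7 and the 28 of the highest step 53.6. Without division by length these medians were 30.6, 41.8 and 36.4 CPM, which do not rise with sharing throughout. Over the 78 members with a count, the correlation of log2 CPM per kilobase with the shared percentage was 0.323 (Pearson) and 0.240 (Spearman), as a description. Small nucleolar RNA genes lie inside 29 members, and 31 of these 57 genes are rows of the tables, with 8, 12 and 6 counts in all.

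Between the libraries most members varied by less than 0.5 on the log2 scale. None of the 77 members past the count filter passed edgeR's quasi-dispersion test at an adjusted p of 0.05, against 11 of 12509 genes (0.0879%), and none had an unadjusted p under 0.05, against 5.72% of all genes. With so few genes called, 0 of 77 after adjustment does not set the members apart. DESeq2 marked none of them as a dispersion outlier. The median biological coefficient of variation was 0.147 for these members and 0.184 for all filtered genes, and the median log2 range over libraries was 0.341 against 0.415. The members also lay at higher levels, with 60 of 77 above the median filtered gene in CPM. The part of level in these differences was not tested. A total of 65 members spanned less than 0.5 on the log2 scale, 11 spanned 0.5 to under 1 and 1 spanned more. The median range of all filtered genes, 0.415, also lay under 0.5, and their share in these steps was not counted.

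The widest ranges were those of Rps4l (7.50, 3.62 and 7.51 CPM), Rplp2 (23.5, 11.9 and 19.3), Rps12 (16.8, 13.3 and 8.93), Rps19 (18.7, 12.8 and 11.2) and Rps20 (39.2, 24.4 and 32.7). Replicate 2 was lowest for Rps4l, Rplp2 and Rps20, and replicate 3 for Rps12 and Rps19. The edgeR adjusted p was 0.893 for Rplp2 and higher for the other 4. Steady genes included Rps15a, Rpl6 (127, 126 and 131 CPM) and Rpl24 (44.2, 41.9 and 42.5 CPM).

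As a family the members were highest in replicate 1. In that library 48 of 77 (62.3%) had their highest CPM, against 36.4% of all filtered genes, 14 (18.2%) in replicate 2 against 32.8% and 15 (19.5%) in replicate 3 against 30.8%. The lowest CPM fell in replicate 1 for 11 members (14.3% against 36.6% of all), in replicate 2 for 37 (48.1% against 31.8%) and in replicate 3 for 29 (37.7% against 31.6%). Their median log2 deviation from each gene's own mean was 0.10, -0.05 and -0.04 in replicates 1, 2 and 3. Both subunits showed it, with 29 of 45 large (64.4%) and 19 of 32 small subunit genes (59.4%) highest in replicate 1. Some members went the other way: Rpl41 was at 58.8, 73.8 and 77.4 CPM, Rps6 at 42.9, 56.3 and 53.7, Rpl15 at 22.8, 29.4 and 32.1 and Rps3 at 54.2, 72.1 and 60.3, each lowest in replicate 1.

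Other genes with short transcripts moved in the same direction. Of the 81 members, 62 have a transcript length under 1 kilobase. The 810 filtered genes of that length that are no members had median deviations of 0.13, -0.085 and -0.059, and 54.1% of them were highest in replicate 1, against 32.0% of 3425 genes of 4 kilobases or more. Among 75 mitochondrial ribosomal protein genes 61.3% were highest in replicate 1, with median deviations of 0.11, -0.05 and -0.07. Nuclear RNAs were highest there too (median deviations 0.52, -0.06 and -0.52) and astrocyte markers lowest by their median (-0.38, 0.33 and 0.06). Of the 8 astrocyte markers, 2 (Gfap and Aldh1l1) were instead highest in replicate 1. Neuronal markers had median deviations of -0.12, 0.01 and 0.10, with summed levels of 46750, 50810 and 54970 CPM and 1 of 12 highest in replicate 1. Microglial markers had median deviations of -0.37, 0.12 and 0.20, but they did not move together. Csf1r, Cx3cr1 and C1qa were lowest in replicate 1, P2ry12 and C1qb in replicate 2, and Tyrobp and Aif1 in replicate 3. Tyrobp was highest in replicate 1, with 7, 1 and 1 counts. Oligodendrocyte markers had median deviations of -0.02, 0.21 and -0.05, with Mbp highest in replicate 1. The part of length, of nuclear RNA and of neuronal and glial RNA in the members' deviation was not tested.

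**Figure D4:**
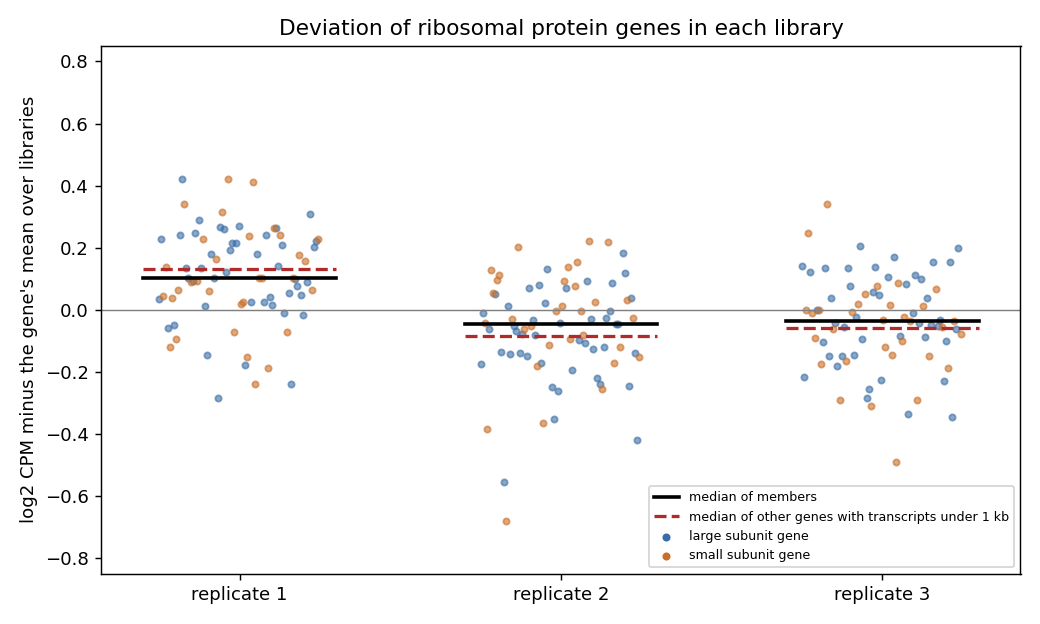
log2 CPM minus the gene's own mean over 3 libraries, 1 point for each of the 77 members past the count filter in each library, with the members' median (solid line) and the median of 810 other genes with transcripts under 1 kilobase (dashed line). In replicate 1 both medians lie above 0, at 0.10 and 0.13, and in replicates 2 and 3 below it.

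Other genes of the pathway were taken from fixed lists, and none of these passed edgeR's test of variation between libraries after adjustment. At an unadjusted p under 0.05, which 5.72% of all genes passed, 1 of 31 assembly genes (Pes1, named after its value was seen) passed and 0 genes of the TOP and TOP control lists. Of the lists above, 1 of 75 mitochondrial ribosomal protein genes passed, as did Rpl22l1 among the related copies. For 17 measured genes outside the rule whose messengers also begin with a TOP sequence, Gnb2l1 among them, the median was 58.6 ± 2.76 CPM per kilobase (SD, n = 3). Npm1, a nucleolar chaperone, was at 736 ± 42.3, the elongation factor gene Eef1a1 at 335 ± 14.3 and Eef2, which drives translocation, at 166 ± 12.6, while Eef1d was at 14.4 ± 1.31 and Eif3e at 18.3 ± 1.28. Of these 17, 4 (23.5%) were highest in replicate 1, against 36.4% of all filtered genes. Their median deviations were 0.01, 0.04 and -0.02 in replicates 1, 2 and 3, against 0.10, -0.05 and -0.04 for the members. Transcripts of the 17 were mostly longer than those of the members, and the part of length in this difference was not tested.

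The fixed TOP control list, which also holds general signalling and translation initiation genes, had a median of 16.4 ± 2.10 CPM per kilobase over its 17 genes. Among these Larp1, which binds the TOP sequence, was at 247, 229 and 240 CPM (36.1 ± 1.41 per kilobase), and the kinase gene Mtor at 111, 102 and 107 CPM (22.3 ± 0.933). The translation initiation scaffold gene Eif4g1 was at 137, 140 and 144 CPM (25.7 ± 0.649). At the low end, the repressor gene Eif4ebp1 was at 0.341, 0.222 and 1.28 CPM and did not pass the count filter. Rps6kb2, which encodes S6 kinase 2, was at 2.64, 6.13 and 3.19 CPM, highest in replicate 2.

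The 31 measured ribosome assembly genes had a median of 8.82 ± 1.13 CPM per kilobase. Nop56, a box C/D particle protein, was at 128, 129 and 141 CPM, and the nucleolin gene Ncl at 307, 357 and 331 CPM. At the low end the Rpl3 chaperone gene Grwd1 was at 1.96, 2.66 and 2.34 CPM and Nhp2, a box H/ACA particle protein, at 4.69, 2.29 and 5.03 CPM. A total of 7 of the 31 (22.6%) were highest in replicate 1, against 36.4% of all filtered genes.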

How the data were processed

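The authors deposited raw counts of reads per gene symbol, 1 table for each library, made with STAR 2.0.0e and HTSeq on the mm10 build per the submitters' processing notes. Counting mode, strand handling and annotation were not given in the sources used here. Of tallied reads, 61.9%, 67.6% and 70.7% fell in genes, and 19.4%, 15.8% and 13.8% did not align uniquely in replicates 1, 2 and 3; rows that name no gene were left out.

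Counts were scaled by TMM (edgeR 4.0.16, R 4.3.3) to CPM and log2 CPM with a prior count of 2. Genes past filterByExpr (minimum count 10) entered edgeR's intercept-only robust quasi-likelihood fit, and each gene's quasi-dispersion over the fitted trend was tested by its F ratio (upper tail) with Benjamini-Hochberg adjustment over all of them. Code was tested on simulated data. DESeq2 1.42.0 gave an alternative. Lengths and overlaps came from GENCODE M21 (GRCm38, the assembly of mm10), matched through the symbol (23155 rows) or an older one (737 rows). Shared windows were exact matches of 50 bases between GENCODE transcripts on either strand. Promoters came from RefSeq, GRCm38.p6.

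Members and gene lists were chosen with earlier results of these data known. Named members were the 10 highest and 10 lowest by CPM, the 5 highest and lowest per kilobase, the 5 with the widest range, and those of the fixed lists and pairs; Rps25, Rpsa and the genes named as steady or as lowest in replicate 1 were chosen after their values were seen. Some genes are not reported here by name or labelled in a plot, while counts and medians include them. Alternatives were other scalings, divisors, filters and each library left out.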

Additional observations from a re-analysis of the deposited data

How the results depend on the processing

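No member was called variable between libraries under any alternative run, while the count over all genes went from 11 to 4 without replicate 2, 5 with a fit that was not robust, 28 as DESeq2 dispersion outliers and 66 with no count filter. The members' median level was 5.40 ± 0.13 on the log2 CPM per kilobase scale. It was 4.22 with union exon length, 6.24 with coding length, 5.12 as a mean, and 6.94 per kilobase of windows found in no other gene, a divisor chosen after seeing the data. Without division by length it was 5.13 (log2 CPM). The large minus small difference, -0.11, was 0.26 with union exon length, 0.16 without division, -0.29 by means and -0.47 with unique windows. The share of gene counts, 0.378%, was 0.423% without the 10 most abundant genes and 0.336% without Rpl4, the latter also chosen after seeing the data. Among pairs, Rps3 over Rps2 turned to -0.51 with union exon length, and Rpl22 over Rpl22l1 to 1.17 with coding length and 1.24 without division. Rplp0 over Rplp1, -0.06 in the main setting, was 1.38 without division. With union exon length the mean ratio also changed sign for Rpl22 over Rpl22l1 (0.69), Rplp1 over Rplp2 (1.76) and Rps6 over Rpl10a (0.12). With each library left out in turn, the level ranged from 5.32 to 5.45, the share from 0.366% to 0.388% and the subunit difference from -0.16 to -0.06. The members' deviation in replicate 1 was 0.06 without replicate 2 and 0.08 without replicate 3. Of 157 comparisons with the main values, 120 stayed within the spread between libraries or within 1.5 times a count. Some of these could not move, since scaling cancels in ratios within a library and does not enter the share of gene counts. The 120 therefore overstates how far the results held under other settings. No paired analysis was possible because the libraries form 1 group.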
